A study of Mus musculus with 2 samples.

Results

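The ATP-binding cassette (ABC) transporter genes were followed in 2 expression arrays of a mouse myelodysplastic syndrome (MDS), one hybridised after decitabine and the other after vehicle. A gene belonged to the family if its name on the array read Abc, then a letter from a to g, then a digit. This rule found 50 genes, read by 74 of 55680 probes, among 34786 genes or transcripts on the array. The cells were bone marrow LSK cells, that is lineage-negative, Sca-1-positive and c-Kit-positive cells, which hold the haematopoietic stem cells and multipotent progenitors. They carried the genotype Tet2KD/KD; Ezh2delta/delta on C57BL/6 in both groups, and were sorted from mice that had received the MDS as a second transplant 10 weeks earlier. DAC (decitabine, a cytosine analogue that traps DNA methyltransferases) or PBS (phosphate-buffered saline, the control) had been given 7 weeks before the sort. Each group had 1 array. The number of mice behind an array, the promoter that drove the Ezh2 deletion and the cells a recipient still had of its own are unknown, since no source used here gives them.

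ABC proteins bind and hydrolyse ATP on a conserved nucleotide-binding domain, and most of them couple this to moving a substrate across a membrane. Subfamilies A, D and G move mainly lipids and sterols, subfamilies B and C hold the multidrug exporters and mitochondrial and bile transporters, and subfamilies E and F have no membrane domain and act on ribosomes. Haematopoietic stem cells are known for strong dye and drug efflux through Abcg2 and P-glycoprotein, which is the basis of the side population assay.

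Values are given as processed intensities in fluorescence units and as log2 differences, DAC minus PBS, after each array was scaled to its 75th percentile over probes well above background on both. That scaling lowers the DAC array relative to its raw intensities, because this percentile was 813 for DAC and 618 for PBS. A gene counted as measured if both arrays called its brightest probe well above background. No difference could be set against a replicate, so there was no test, and a gene was counted only if it differed at least 2-fold. Probes printed 10 times gave an SD for a log2 difference of 0.26 in dim probes, 0.14 in probes of middle signal and 0.09 in bright ones. Each value was recomputed under 8 alternatives, which were normexp correction, no background subtraction, the 75th percentile over all probes, median centring, quantile normalization, loess, spike-in scaling and the series matrix. The SD of repeated spots covers the spots and the scan, and leaves out mice, sorting, RNA extraction and labelling. A lower signal in bulk RNA cannot tell fewer cells of a type from less RNA per cell.

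Of the 50 family members, 27 were measured (54.0%), against 52.4% of all genes on the array. Among the 27, 4 were at least 2-fold higher on the DAC array (14.8%, against 10.0% of the 18211 measured genes), 2 were at least 2-fold lower (7.41%, against 6.84%) and 21 lay between. The higher members were the drug and conjugate exporters Abcc1 and Abcc4, the cholesterol exporter Abca1 and the P-glycoprotein gene Abcb1b. The lower members were the porphyrin transporter Abcb6 and the translation factor Abcf3. The median difference of the members was −0.04, against 0.02 for all measured genes, with 12 members above 0 and 15 below (51.4% of all measured genes were above 0). As shares of the members or by their median, the family stood close to the background. The split of 4 higher and 2 lower became 2 and 2 with normexp background correction, 3 and 3 under quantile or loess normalization and 3 and 4 under spike-in scaling. Over all genes past 2-fold, 59.4% were higher under the main scaling, 48.9% with normexp, 42.2% with quantile normalization and 32.2% with spike-in scaling. Spike-in scaling moved the median of all genes by −0.31, quantile normalization by −0.11 and the 75th percentile over all probes by −0.20. All 8 alternatives moved it down, loess the least (−0.07), so values tend to lie lower in them than under the main scaling.

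The DAC array had 56.8% of its probes well above background and the PBS array 48.5%, and no member probe was saturated. Of the 74 probes of the family, 38 passed after DAC and 33 after PBS. Of the members not measured, 4 were above background after DAC alone (9.43% of all genes), 3 after PBS alone (2.81% of all genes) and 16 on neither array. The part of this gap in detection in the results on single members was not tested.

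**Figure D1:**
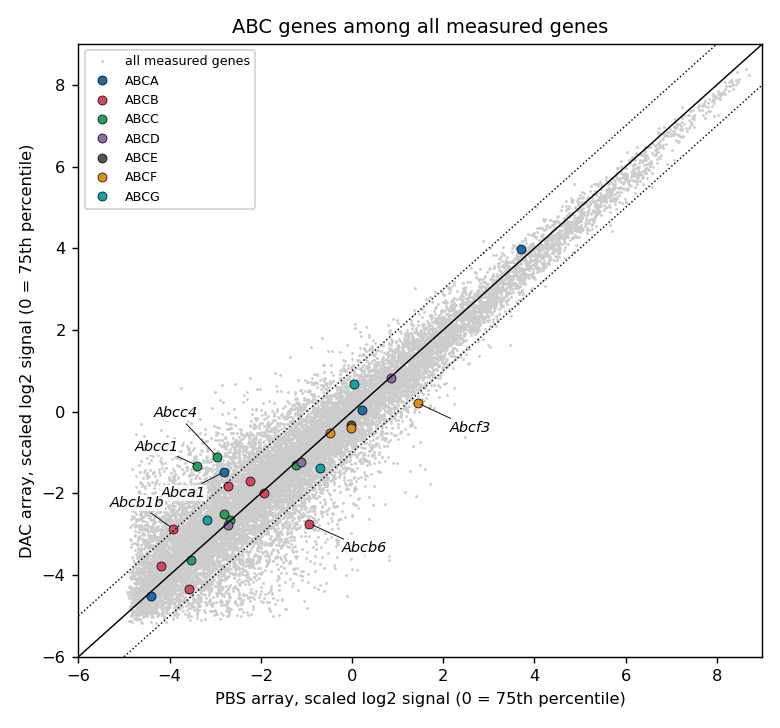
Scaled log2 signal on the PBS array (x axis) and on the DAC array (y axis), where 0 is the 75th percentile, for the 18211 measured genes (grey) and the 27 measured ABC genes, coloured by subfamily. The solid line marks equal signal and the dotted lines a 2-fold difference. The 4 members above the upper dotted line all lie in the dimmer part of the PBS signal range, and Abcb6 and Abcf3 lie below the lower one.

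The drug efflux members, read by probe, went different ways (11.5% of the 25404 measured probes were at least 2-fold higher and 7.13% lower). Abcc1, which encodes the multidrug resistance protein MRP1 that exports glutathione conjugates and leukotriene C4, had an intensity of 326 on the DAC array, against 59.0 on PBS. This was a log2 difference of 2.07, or 4.20-fold higher after DAC. Abcc4, which encodes MRP4, an exporter of cyclic nucleotides and of several nucleotide analogues, had 377 and 79.8, a log2 difference of 1.84 or 3.59-fold. Each difference was over 13 times the SD of repeated spots (15.0 for Abcc1 and 13.4 for Abcc4), and each stayed past 2-fold in all 8 other scalings and background corrections, at 1.22 to 1.91 for Abcc1 and 1.16 to 1.68 for Abcc4. The SD used, 0.14, went by the mean signal over both arrays. On the PBS array alone both signals were dimmer, and dim probes had an SD of 0.26. Abcc1 and Abcc4 were each read by 1 probe, at chromosome 16, 14474551 to 14474610, and chromosome 14, 118882104 to 118882163 (mm9).

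Mouse P-glycoprotein, the broad exporter of lipophilic drugs, comes from a pair of genes. Abcb1b had an intensity of 112 after DAC and 40.6 after PBS, a log2 difference of 1.06 or 2.09-fold. Abcb1a had 59.7 and 33.9, a log2 difference of 0.42. Both depended on the processing: Abcb1b lay under 2-fold in all 8 alternatives, down to 0.33 with no background subtraction, and Abcb1a ran from −0.08 with normexp background correction to 0.26 with median centring. The probes of the pair (chromosome 5, 8748075 to 8748134 for Abcb1a and 8865925 to 8865984 for Abcb1b, mm9) lie beside that of Abcb4, the phosphatidylcholine exporter of bile (8959108 to 8959167). Abcb4 had 251 and 131, a log2 difference of 0.54, with a range of 0.23 to 0.38 over the alternatives. All 3 genes of this cluster, which spans 211 kb, were thus measured and above 0 under the main scaling, with Abcb1a turning below 0 in 3 of the 8 alternatives. Probes of different family members shared at most 12 bases in a row of their 60, over 2670 pairs. Probes were not compared with the transcripts of other genes, so whether the Abcb1a and Abcb1b probes also read each other's transcript was not tested.

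Abcg2, the breast cancer resistance protein and the dye exporter of the side population, had an intensity of 310 after DAC and 381 after PBS. Its log2 difference of −0.69, 1.62-fold lower after DAC, was 5.02 times the SD of repeated spots and short of 2-fold. It was below 0 under every scaling and background correction tried, and it passed 2-fold with spike-in scaling and was nearest to 0, at −0.60, with no background subtraction. Abcg2 thus had the opposite sign to Abcc1, Abcc4 and Abcb1b.

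Abcc5, which encodes MRP5, an exporter of cyclic nucleotides and nucleotide analogues, was read by 4 probes that did not give 1 answer. The probe that stood for the gene (chromosome 16, 20404654 to 20404713) had 143 after DAC and 88.3 after PBS, a log2 difference of 0.29 that became −0.01 with spike-in scaling. A second probe above background on both arrays (20400837 to 20400896) had 47.5 and 33.9, a difference of 0.09 that was below 0 in all 8 alternatives (−0.39 to −0.07). A further probe (20392789 to 20392848) had 27.9 and 18.3 and was not well above background on the PBS array, which bounds it at 1.04-fold or more. The remaining probe lies at the far end of the transcript (20331568 to 20331627, base 5559 of NM_013790) and was printed 10 times on each array. Its spots ran from 226 to 278 on the DAC array, with a median of 250.1. On the PBS array they ran from 11.1 to 24.5, with a median of 18.2, and were not well above background. The spots of the arrays did not overlap, and the bound was at least 9.32-fold higher on the DAC array. The 2 probes measured on both arrays lay near equal signal, so the size given for Abcc5 depends on the probe read. Those 2 probes are annotated to a different transcript record of the gene. Both probes found after DAC alone are annotated to NM_013790. A difference between the transcripts was not tested.

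**Figure D2:**
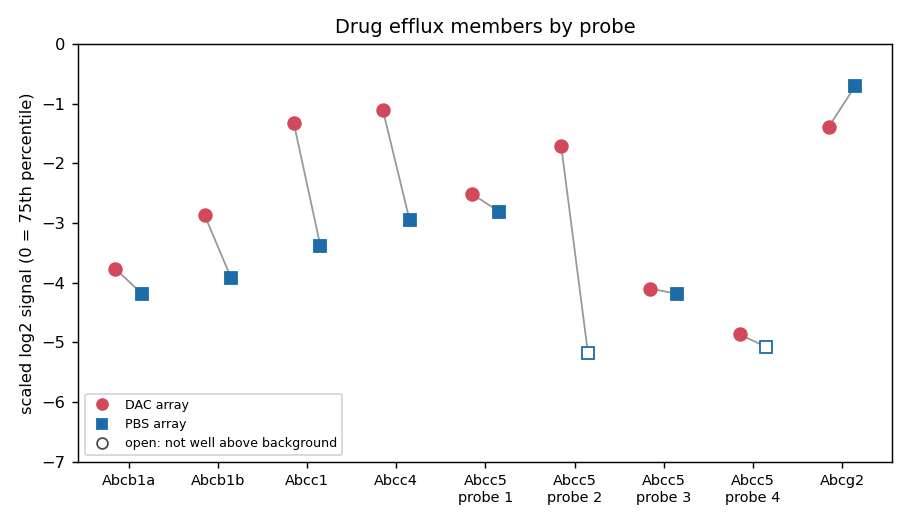
Scaled log2 signal (0 is the 75th percentile) of every probe of the 6 drug efflux genes after DAC (circles) and after PBS (squares), with open symbols for probes not well above background. Abcc1, Abcc4 and probe 2 of Abcc5, the one printed 10 times, show the longest lines, and Abcg2 alone slopes the other way.

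Promoter windows of Abcb1a, Abcb1b, Abcc4 and Abcg2 are shown because decitabine blocks the enzymes that methylate cytosine in CpG pairs. Methylation itself was not measured here. A window runs from 250 bases before to 50 bases after a gene's start in RefSeq (GRCm38.p6), and capitals mark each CpG. The windows of Abcb1a (chr5:8566841-8567140, plus strand) and Abcb1b (chr5:8797897-8798196, plus strand) hold 2 and 12 CpG. Abcc4 (chr14:118706170-118706469, minus strand) holds 41 in the window shown and 6 in another. Abcg2 (chr6:58640296-58640595, plus strand) has 28 in the window shown, and 10 and 3 in other windows. Abcc1 had no window in the reference used, and the Abcc5 window, with 24 CpG, is not shown.
Abcb1a promoter: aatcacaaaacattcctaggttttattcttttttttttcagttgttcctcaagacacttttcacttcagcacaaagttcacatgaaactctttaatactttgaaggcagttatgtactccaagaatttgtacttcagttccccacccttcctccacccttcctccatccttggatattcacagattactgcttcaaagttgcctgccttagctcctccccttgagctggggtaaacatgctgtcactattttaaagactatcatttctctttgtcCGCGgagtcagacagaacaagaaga
Abcb1b promoter: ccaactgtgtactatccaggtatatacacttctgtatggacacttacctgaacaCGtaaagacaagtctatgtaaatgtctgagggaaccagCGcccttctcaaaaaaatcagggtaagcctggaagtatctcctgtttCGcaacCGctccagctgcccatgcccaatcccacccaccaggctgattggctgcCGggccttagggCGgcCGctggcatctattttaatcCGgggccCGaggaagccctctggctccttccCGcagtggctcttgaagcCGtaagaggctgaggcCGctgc
Abcc4 promoter: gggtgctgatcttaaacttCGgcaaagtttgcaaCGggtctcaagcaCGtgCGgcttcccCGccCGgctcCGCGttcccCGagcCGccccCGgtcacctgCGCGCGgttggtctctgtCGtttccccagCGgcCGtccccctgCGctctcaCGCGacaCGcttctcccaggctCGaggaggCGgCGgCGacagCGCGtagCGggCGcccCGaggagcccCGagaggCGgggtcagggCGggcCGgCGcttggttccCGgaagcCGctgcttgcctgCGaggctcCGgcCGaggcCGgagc
Abcg2 promoter: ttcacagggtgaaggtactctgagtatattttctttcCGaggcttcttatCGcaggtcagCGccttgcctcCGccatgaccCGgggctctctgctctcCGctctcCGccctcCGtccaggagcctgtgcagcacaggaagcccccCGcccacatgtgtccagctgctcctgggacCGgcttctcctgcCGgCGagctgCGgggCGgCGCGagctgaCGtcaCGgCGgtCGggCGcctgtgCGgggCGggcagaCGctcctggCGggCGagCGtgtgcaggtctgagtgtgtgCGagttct
The windows of the neighbouring P-glycoprotein genes thus differ in CpG content. A link between CpG content and the differences between the arrays was not tested.

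Subfamily A, the lipid exporters, had 4 of 16 members measured, of which 1 was at least 2-fold higher and 0 lower. Abca1, which loads cholesterol and phospholipid onto apolipoprotein A-I, had an intensity of 293 after DAC and 88.5 after PBS. Its log2 difference of 1.33 (2.52-fold) ran from 0.80 with no background subtraction to 1.17 with median centring, and 6 of the 8 alternatives kept it past 2-fold. Its promoter window (chr4:53159846-53160145, minus strand) holds 26 CpG.
Abca1 promoter: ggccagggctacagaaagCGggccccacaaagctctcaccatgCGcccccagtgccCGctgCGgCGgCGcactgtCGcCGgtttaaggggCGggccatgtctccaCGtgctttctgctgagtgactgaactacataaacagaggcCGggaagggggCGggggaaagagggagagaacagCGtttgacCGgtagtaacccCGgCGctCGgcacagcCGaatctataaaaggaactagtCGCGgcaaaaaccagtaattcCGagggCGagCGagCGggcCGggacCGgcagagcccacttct
Abca2, an endosomal and lysosomal lipid transporter, had 830.0 and 724, a log2 difference of −0.20. Its other probe had 43.1 and 7.25, above background on the DAC array only with a bound of 1.61-fold higher. Abca17, known from testis, had 12785 and 8021 on 1 probe (chromosome 17, 24404496 to 24404555), a log2 difference of 0.28 that became −0.03 with spike-in scaling. Its other probe (24483217 to 24483276) had 8.36 and 12.2 and was not well above background on either array, so the probes differ in whether the gene was detected. Abca14, also a testis gene, was dim, with 35.9 and 29.0 and a log2 difference of −0.09.

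Outside the measured genes, 5 members of subfamily A were well above background on 1 array only. Abca13, the longest protein of the family, had 5.86 after DAC and 125 after PBS, at least 7.33-fold lower after DAC. Its other probe was not well above background on either array. Abca6, from a cluster of lipid transporter genes on chromosome 11, had 4.88 and 91.4, at least 5.35-fold lower. Abca3, the surfactant lipid transporter of lung, had 18.6 and 25.0, a bound of 1.47-fold. On the other side, Abca7, a phospholipid transporter of macrophages and lymphocytes, had 77.7 after DAC and 25.7 after PBS, at least 2.29-fold higher. Abca4, the retinal transporter, had 33.8 and 5.10, a bound of 1.27-fold. With a bound of at least 2-fold, the whole family had 2 members on the DAC side (of 4) and 2 on the PBS side (of 3). Over all genes above background on a single array, 38.3% on the DAC side and 54.2% on the PBS side had such a bound. With the 75th percentile over all probes or spike-in scaling, Abca7 lay under 2-fold and 1 member was left on the DAC side. The other members of the chromosome 11 cluster (Abca5, Abca8a, Abca8b and Abca9) were not well above background on either array, as were Abca12, Abca15 and Abca16.

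**Figure D3:**
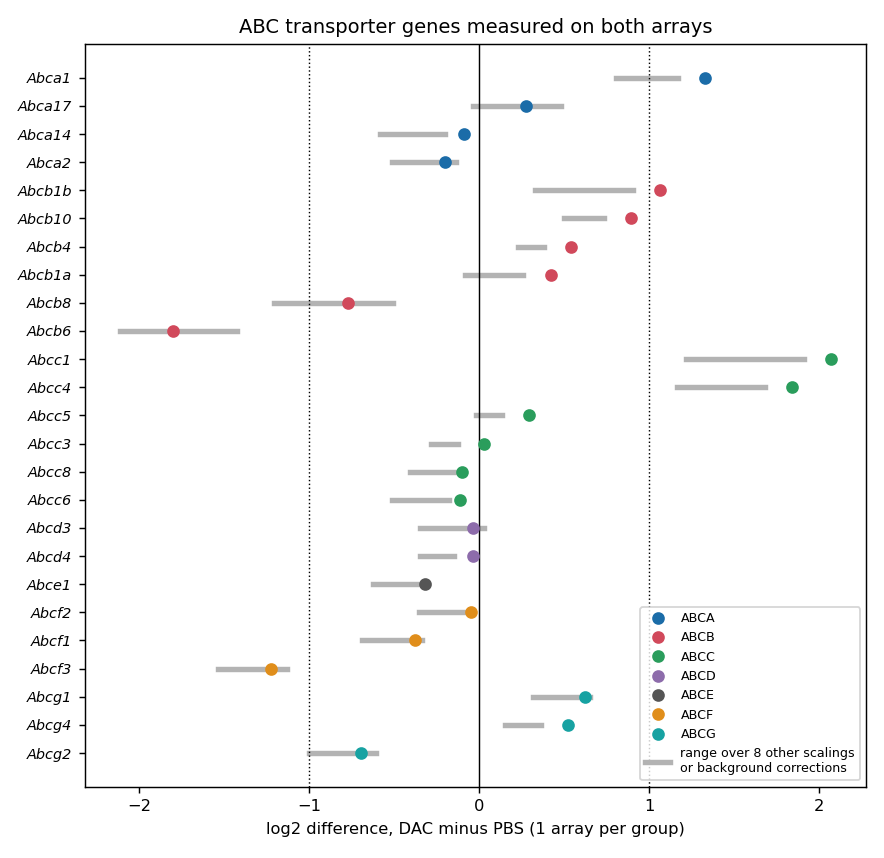
Log2 difference, DAC minus PBS, of measured ABC genes described in the text, by subfamily (points), with the range over 8 other scalings or background corrections (grey bars). Dotted lines mark a 2-fold difference. Abcc1, Abcc4, Abcb6 and Abcf3 keep their whole bar past 2-fold, while Abca1 and Abcb1b do not.

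Subfamily B, beyond P-glycoprotein, holds the mitochondrial transporters of heme and iron-sulphur metabolism, and these were mixed. Abcb6, a porphyrin transporter, had an intensity of 122 after DAC and 322 after PBS, a log2 difference of −1.80 or 3.48-fold lower after DAC. It was 13.0 times the SD of repeated spots and past 2-fold in all 8 alternatives, from −2.11 to −1.42. Abcb10, an inner membrane transporter needed for heme synthesis in erythroid cells, had 231 and 94.5, a log2 difference of 0.89, with a range of 0.50 to 0.73. Abcb8, an inner membrane transporter linked to iron export, gave −0.77 on the probe that stood for it (40.0 and 51.8). Another Abcb8 probe had 45.8 and 20.6, above background on the DAC array only with a bound of 1.69-fold. Its first probe passed 2-fold lower in 3 of the 8 alternatives. The Abcb8 probes thus lay on opposite sides of equal signal. The bile salt exporter Abcb11, the lysosomal peptide transporter Abcb9 and Abcb5 were not well above background on either array. The Abcb6 window (chr1:75180343-75180642, minus strand) holds 13 CpG.
Abcb6 promoter: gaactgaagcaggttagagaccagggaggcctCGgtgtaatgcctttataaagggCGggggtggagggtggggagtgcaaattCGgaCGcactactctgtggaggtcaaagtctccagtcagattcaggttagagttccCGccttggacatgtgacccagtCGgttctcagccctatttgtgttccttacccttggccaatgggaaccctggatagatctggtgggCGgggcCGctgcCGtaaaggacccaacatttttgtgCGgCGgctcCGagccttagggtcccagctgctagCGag

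Subfamily C, beyond the drug exporters, stayed near equal signal. Abcc3, a basolateral exporter of conjugated anions, had 130.1 and 96.8, a log2 difference of 0.03 that was below 0 in all 8 alternatives. Abcc6, whose loss causes ectopic calcification, had 65.4 and 53.6, a difference of −0.11. Abcc8, the sulphonylurea receptor of ATP-sensitive potassium channels, had 327 and 266, a difference of −0.10, on 1 of its 2 probes. The other Abcc8 probe starts 13 bases further along the transcript and had 10.4 and 14.1, not well above background. These probes share 47 of their 60 bases, and only the following ends differ, the first from the 5′ end of the detected probe and the second from the 3′ end of the undetected one.
Abcc8 detected probe: agcgtgccgcccc
Abcc8 undetected probe: ataaagaaattaa
A shift of 13 bases thus separated a signal well above background from one that was not. Overlapping Abcg4 probes with 44 shared bases were both not well above background (14.9 and 9.73 on one, 5.08 and 4.63 on the other). Abcc2, Abcc9, Abcc10 and Abcc12 were not well above background on either array.

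Subfamily D, the peroxisomal and lysosomal transporters, had no measured member past 2-fold. Abcd3, a peroxisomal importer of branched fatty acids and bile acid precursors, had 1432 after DAC and 1116 after PBS, a log2 difference of −0.04 that changed sign in 2 of the 8 alternatives. Abcd4, a lysosomal cobalamin transporter, had 120 and 93.3, a difference of −0.04. Abcd2, a peroxisomal importer of long fatty acids, was above background after DAC alone, with 97.5 against 4.33, at least 3.65-fold higher.

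The ribosome-bound subfamilies E and F were measured in full, 1 of 1 and 3 of 3. The probes that stood for these genes were below 0 under all 8 alternatives. The median of all measured genes was also below 0 under all 8, from −0.29 with spike-in scaling to −0.05 with loess. Abce1, which splits ribosomes after termination, had 646 and 610.4, a log2 difference of −0.32. Abcf1, a partner of the initiation factor eIF2, had 616 and 608, a difference of −0.38, but its other probe (105 and 55.0) gave 0.53. Abcf2 had 566 and 443, a difference of −0.04. Abcf3, related to the yeast stress kinase activator Gcn20, had 943 and 1675, a difference of −1.23 or 2.34-fold lower after DAC. The Abcf3 difference was 14.2 times the SD of repeated spots and past 2-fold in all 8 alternatives, from −1.54 to −1.13. Its promoter window (chr16:20548353-20548652, plus strand) holds 27 CpG.
Abcf3 promoter: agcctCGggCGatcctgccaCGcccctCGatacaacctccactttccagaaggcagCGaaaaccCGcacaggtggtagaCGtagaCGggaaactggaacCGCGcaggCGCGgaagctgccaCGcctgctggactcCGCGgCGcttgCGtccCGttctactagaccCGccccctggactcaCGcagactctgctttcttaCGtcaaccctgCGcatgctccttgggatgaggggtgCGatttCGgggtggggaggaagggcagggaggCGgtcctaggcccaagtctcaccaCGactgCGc

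In subfamily G, 3 of 6 members were measured and none passed 2-fold. Abcg1, which moves cholesterol to high-density lipoprotein, had 1302 after DAC and 642 after PBS, a log2 difference of 0.62, with a range of 0.32 to 0.65. Abcg4, its relative in brain, had 129 and 68.3, a difference of 0.52, on 1 of 3 probes. Abcg3, a rodent relative of Abcg2, was above background after DAC alone, at 28.1 against 4.91, with a bound of 1.05-fold. The plant sterol pair Abcg5 and Abcg8 was not well above background on either array. Abca1 and Abcg1, the cholesterol efflux pair, thus had the same sign under every scaling and background correction tried, while Abcg2 had the opposite one.

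Agreement between probes could be read for 3 members with more than 1 probe above background on both arrays, and 2 of them, Abcf1 among these, had probes of opposite sign. Over all such genes, 2202 of 4655 (47.3%) had probes of opposite sign. Every other measured member rested on 1 measured probe.

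CpG content was read for the 38 members with a promoter window, taking the richest window of each. The 17 measured members among them had a median of 26.0 CpG, and the 16 on neither array had 7.5. Over all genes with a window, the same medians were 21.0 for 9472 measured genes and 5.0 for 5872 genes on neither array, so the family follows the array at large here. Among members past 2-fold, those with a window had, on the higher side, 26 (Abca1), 12 (Abcb1b) and 41 (Abcc4) and on the lower side 13 (Abcb6) and 27 (Abcf3). These ranges overlap. Motifs were searched on both strands in the 45 windows of the members and in all 32851 windows. The GC box GGGCGG was in 46.7% of member windows and 35.7% of all, the CCAAT box CCAAT in 35.6% and 37.4%, and the TATA core TATAAA in 15.6% and 13.6%. The xenobiotic response core GCGTG was in 35.6% of member windows and 32.4% of all, the antioxidant response core TGACNNNGC in 15.6% and 12.4%, and the FOXO core TGTTTAC in 2.22% and 3.65%. The liver X receptor element, a direct repeat of AGGTCA with 4 bases between, was in 0 of the 45 windows and in 0.0152% of all. GGGCGG and GCGTG each contain a CpG, so their counts are tied to CpG content. The single FOXO core among the members lies in the Abcb1a window printed above, and the Abcc4 and Abcf3 windows printed above hold 2 and 3 GCGTG matches.

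**Figure D4:**
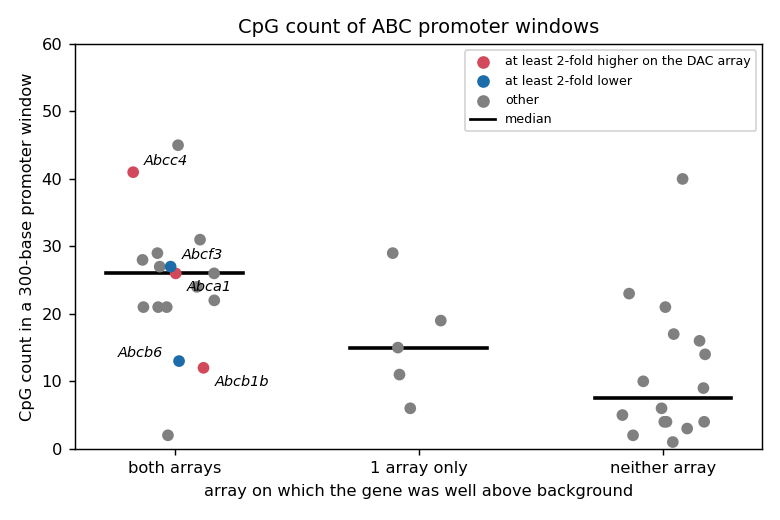
CpG count in a 300-base promoter window (richest window per gene) for the 38 ABC genes with one, by whether the gene was well above background on both arrays, 1 array or neither. Black lines are medians (26.0 for measured genes, 7.5 for genes on neither array). Genes at least 2-fold higher (red) and lower (blue) on the DAC array lie among the others, from 12 to 41.

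Genes that work with the family were read from 7 lists chosen by function, and their counts stand beside 10.0% higher and 6.84% lower among all measured genes. ABC proteins with other names were the peptide transporter of antigen presentation, Tap1 (162 on the DAC array, 50.6 on the PBS array, log2 difference 1.28) and Tap2 (1917 and 558, 1.38), both at least 2-fold higher, while Cftr was not well above background on either array. Tap1 stayed past 2-fold in 4 of the 8 alternatives, down to 0.59, and Tap2 in all 8. Among 17 measured regulators of ABC genes, 2 passed 2-fold higher (11.8%) and 0 lower, and the median was 0.34. The higher ones were the forkhead factors Foxo1 (1.39, and 1.46 on its other probe) and Foxo3 (1.26). Rxra, the partner of the liver X and xenobiotic receptors, and the lipid sensor Ppard were above background after DAC alone, at least 3.88-fold and 3.35-fold higher.

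Among 17 measured sterol genes, 4 passed 2-fold higher (23.5%) and 0 lower, and the median was 0.04. Among the higher ones were the HDL receptor Scarb1 (1.50, with 0.00 on its other probe), the desaturase Scd1 (1.37) and Mylip (1.16, under 2-fold in all 8 alternatives), a ubiquitin ligase. Insig1, a brake on sterol synthesis, was above background after DAC alone, at least 2.91-fold higher. Among 16 measured glutathione genes, whose products make the conjugates that Abcc1 exports, 1 passed 2-fold higher (6.25%) and 0 lower, and the median was 0.32. This was Mgst2 (499 and 66.7, log2 difference 2.51), a membrane enzyme that can form leukotriene C4.

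Among 19 measured peroxisome genes, 3 passed 2-fold higher (15.8%) and 2 lower (10.5%), and the median was 0.14. The higher ones were the beta-oxidation enzyme Hsd17b4 (1.74), the fatty acid ligase Acsl4 (1.36) and the import docking protein Pex14 (1.03, under 2-fold in all 8 alternatives), and the lower ones the import factors Pex10 (−2.14) and Pex13 (−1.55). Among 17 measured mitochondrial heme and iron-sulphur genes, 2 passed 2-fold higher (11.8%) and 1 lower (5.88%), and the median was 0.18. The heme exporter Flvcr1 (2.05) and the mitochondrial iron importer Slc25a37 (1.54, with 0.29 on its other probe) were higher, and the cysteine desulphurase Nfs1 (−1.49) was lower. Among 11 measured ribosome recycling and translation genes, 2 passed 2-fold higher (18.2%) and 0 lower, and the median was 0.04. These were the ribosome rescue factor Pelo (1.47) and Eif2b1 (1.24), while the kinase gene Eif2ak4 was above background after DAC alone, at least 3.46-fold higher. The shares of higher genes on the regulator and heme lists lay near that of all genes. Over the 7 lists, 8 of the 16 higher genes and 3 of the 3 lower ones stayed past 2-fold in all 8 alternatives, and all of the higher and lower genes kept their sign. Those that did not stay past 2-fold throughout were Tap1 and Eif2b1 (past it in 4 of the 8), Scarb1, Scd1 and Flvcr1 (6), Foxo3 (7), and Mylip and Pex14 (0). The medians of the sterol and ribosome lists were below 0 in all 8 alternatives, down to −0.27 with spike-in scaling for each. The median of all measured genes was below 0 in all 8 as well, down to −0.29 with spike-in scaling. That of the peroxisome list was below 0 in 4 of the 8 alternatives and that of the heme list in 3.

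**Figure D5:**
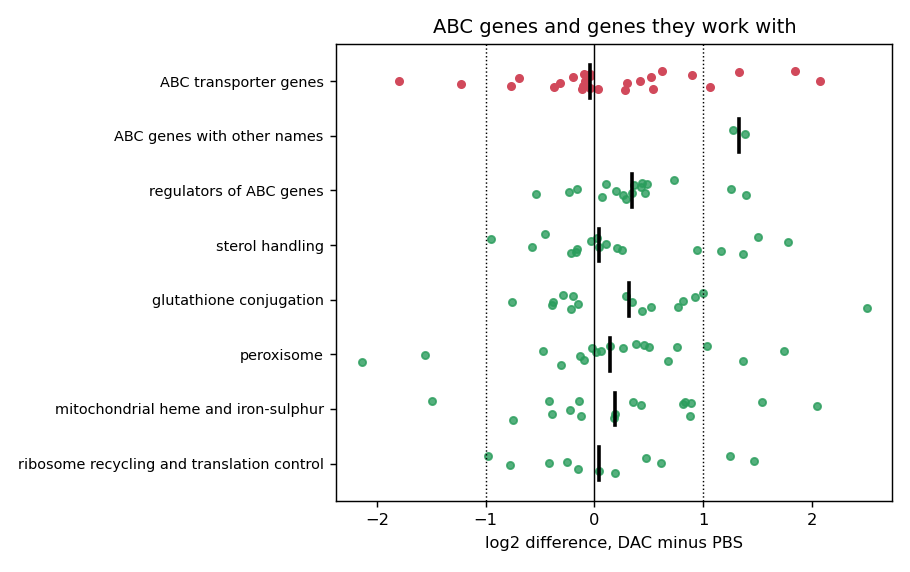
Log2 difference, DAC minus PBS, of measured ABC genes (red) and of measured genes on 7 lists of partners (green), with the median of each list as a black bar and dotted lines at a 2-fold difference. ABC genes spread on both sides of 0, and the list of ABC genes with other names holds Tap1 and Tap2 only.

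Markers of the sorted cells and of other cell types were read beside these results. Among all measured genes, 10.0% were at least 2-fold higher and 6.84% lower. Of 8 LSK markers 7 were measured, among them Kit and Ly6a, with log2 differences of 0.12 and 0.07, while Slamf1 was not well above background. The stem cell marker Procr gave 1.65, and the summed LSK intensity was 23528 after DAC and 18882 after PBS. All summed intensities of markers are unscaled, unlike the log2 differences. The 75th percentile used for scaling was itself higher for DAC (813) than for PBS (618). A larger sum after DAC therefore does not by itself show a higher scaled signal. Of 8 monocyte and macrophage markers, 4 were measured and 0 passed 2-fold, with 3 above 0 and 1 below, from −0.62 (Lyz2) to 0.87 (Cd68), and Mrc1 not well above background. Csf1r gave 0.02 on the probe that stood for it and 2.27 on another probe. Their summed intensity was 5307 after DAC and 3753 after PBS. Adgre1 (at least 4.97-fold), Cd14 and Vcam1 from that list were above background after DAC alone. Of 8 erythroid markers, 5 were measured and 0 passed 2-fold (summed intensity 1714 and 1222), with 2 above 0 and 3 below, from −0.76 to 0.60. Epor was above background after DAC alone (at least 2.83-fold) and Alas2 after PBS alone (a bound of 1.77-fold). Endothelial markers had 2 of 3 measured genes at least 2-fold higher, Pecam1 (2.95) and Emcn (1.56), while Kdr, the brightest, gave 0.16. Emcn was dim on the PBS array (22.4) and fell to 0.43 in the alternatives. The summed intensity of the list was 1475 and 684. Cdh5 was not well above background, and Tek was above it after DAC alone (a bound of 1.15-fold). B cell markers had 1 of 4 measured genes at least 2-fold higher (Pax5 1.28), at 4919 and 2242, with Ms4a1 not well above background. T and NK cell markers had 0 of 2 measured genes past 2-fold, at 6328 and 4839, with Il2rb above background after DAC alone (at least 7.02-fold) and Cd3d after PBS alone (at least 4.51-fold). Mast cell and basophil markers had 1 of 4 higher and 2 lower, at 1019 and 1439, with Ms4a2 not well above background. Fcer1a from that list was above background after PBS alone (at least 2.85-fold). Over the marker lists, 2 of the 6 higher genes and 0 of the 2 lower ones stayed past 2-fold in all 8 alternatives. The part of these cell types in the ABC results was not tested.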

How the data were processed

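Total RNA of sorted LSK cells was labelled with Cy3 and hybridised to 1 array per group, per the labels. Per the file headers, the authors' files came from Agilent Feature Extraction 10.7.3.1, with probe positions on mm9 and both arrays on 1 slide. The deposited processed intensity was background-subtracted and detrended by the scanner software and not normalized between arrays. The deposited files also hold calls per spot, such as well above background. The deposited series matrix holds log2 values, used only for differences between its columns.

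Spots of a probe were averaged as log2 intensity, and each array was scaled to its own 75th percentile, taken over 25404 probes (45.6%) that both arrays called well above background. The probe with the highest mean signal stood for a gene. For genes above background on 1 array only, a lower bound was computed against the dim signal or, where that was higher, the dim array's lowest signal among probes called well above background. Named were all drug efflux members by probe, members past 2-fold or with such a bound, the 2 brightest members of each subfamily and members whose probes differ in sign; most other members are given as well. Genes of other lists were named past 2-fold or with such a bound, and markers as examples. Other scalings and background corrections used limma 3.58.1 and Python 3.11.15. The calculation of differences and counts was tested on simulated data. Members and lists were chosen with earlier results of these data known. Gene names came from the files and a GRCm38.p6 gene table, whose coordinates were used only for promoter windows. Some members and list genes entered the counts and medians and are not reported here by name. Precision is limited by there being 1 array per group.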

Additional observations from a re-analysis of the deposited data

How the results depend on the processing

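No paired analysis was possible because each group had 1 array, and for the same reason no array could be left out. The count of 4 ABC genes at least 2-fold higher became 2 with normexp correction and 2 with no background subtraction, 7 with the positive and significant call, 9 with no filter and 0 among genes no dimmer than the median. It was 3 under each of the 6 scalings (all-probe 75th percentile, median centring, quantile, loess, spike-in and series matrix). The count of 2 lower genes became 4 with spike-in scaling, 5 with no filter and 1 among genes no dimmer than the median. With the second brightest measured probe, 3 members remained to be read, with 1 higher, 0 lower and a median of 0.53. The median of −0.04 became −0.24 with the 75th percentile over all probes and with the series matrix, −0.20 with median centring, −0.19 with quantile normalization and with loess, and −0.35 with spike-in scaling. The spike-in value rests on 1 of 10 spike-in probes. Members with a bound of at least 2-fold on the DAC side fell from 2 to 1 with the all-probe percentile and to 1 with spike-in scaling, both chosen after seeing the data, since the bound of Abca7 then lay under 2-fold. All 6 members past 2-fold kept their sign under the 8 scalings and background corrections, and 4 of them stayed past 2-fold. Dim signal limits Abcb1b, Abcc1, Abcc4 and Abca1, whose PBS intensities were under 90.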
